A study of Mus musculus with 9 samples.

Results

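The otic vesicle (OV), the closed epithelial sac from which the inner ear forms, was compared with the tissue that surrounds it in the same mouse embryos. The comparison rests on 6 of the 9 arrays of the series, 3 of OV and 3 of periotic tissue, and the members were taken from the tissue named in each array's label. All arrays came from CD-1 embryos at E10.5 (the embryonic day), with no genetic change or treatment in any group. The OV group was RNA from pooled, dissected vesicles, the periotic group was dissected mesenchyme together with hindbrain, and the remaining 3 arrays were of embryos from which the greater otic region had been removed (embryo-minus-otic). The pools came from 3 litters, and the sources used here do not tie an array number to a litter, so the spread between arrays may be partly technical. Dissection does not purify a cell type, and each pool can hold blood, vessels and fragments of neighbouring tissue.

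The OV arises from a placode of the surface ectoderm that thickens, folds in and pinches off beside the hindbrain. Its wall is a polarized epithelium, sealed by tight junctions made of claudins and related proteins and held together by E-cadherin. The periotic mesenchyme, which comes from neural crest and mesoderm, later forms the capsule around the inner ear. Wnt proteins from the dorsal neural tube, Sonic hedgehog from the floor plate and notochord, and FGFs from hindbrain and mesenchyme are known to pattern the vesicle, so that the tissues on either side of this comparison are signalling partners as well as neighbours.

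Intensity is given below as log2 of the signal after quantile normalization of the 9 arrays. Fold Δ is the fitted ratio of the group means, and *q* comes from limma after Benjamini-Hochberg adjustment over all 25697 probes. Among the 196 called genes of the lists described here, the standard error of the log2 difference ran from 0.08 to 0.31 with a median of 0.11 (3 arrays a tissue). A probe counted as above background where its detection p-value was under 0.01. That held for 11283 to 11842 probes on the OV arrays and for 11501 to 12160 on the periotic tissue arrays. For a probe that no array of the dimmer tissue detected, the fold Δ is a lower bound, written as "at least". In this bound each dim array contributes its own value for the probe or the faintest value that passed there, whichever is higher. In RNA from bulk tissue, a lower level because fewer cells express a gene and a lower level because each cell holds less of its RNA cannot be told apart.

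After quantile normalization, which gives all arrays the same distribution of intensity, the calls were nearly equal in number in both directions. At *q* under 0.05, 1302 probes (5.07% of those tested) were higher in OV and 1323 (5.15%) were higher in periotic tissue, while 23072 were called in neither direction. The median fold Δ of the called probes was 1.49 for those higher in OV and 1.48 for those higher in periotic tissue. More than 2-fold differences were found for 269 and 262 of them, and the largest fitted fold Δ was 21.7 toward OV and 19.3 toward periotic tissue, where probes undetected in the dimmer tissue have only a bound. With the stricter rule of *q* under 0.001 and a fold Δ above 4, 71 probes (0.276%) were higher in OV and 66 (0.257%) were higher in periotic tissue. The arrays of the tissues did not overlap for any of these probes, an arrangement seen for 12.3% of all probes with OV higher and for 12.8% with periotic tissue higher. A large fold Δ with a low *q* on the same arrays selects for such separation, so it adds no support to the calls. The median difference over all probes was 0.00 log2 units, a value that the quantile normalization largely fixes. Without normalization between arrays, 620 probes were called higher in OV and 761 higher in periotic tissue. The balance is therefore not a result about the tissues.

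**Figure D1:**
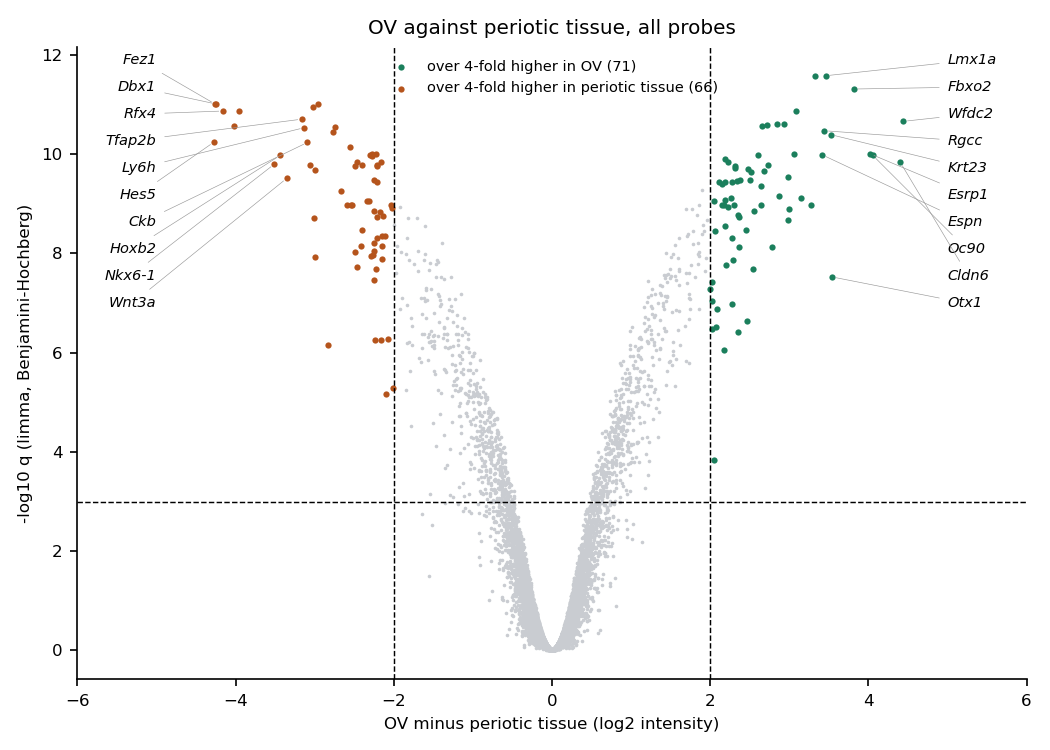
Each point is a probe, with the difference of mean log2 intensity between OV and periotic tissue on the x axis and -log10 of the limma *q*-value on the y axis. Dashed lines mark 4-fold and *q* of 0.001. The 71 coloured probes on the right and the 66 on the left passed both, and 10 genes with the largest differences are named on each side.

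Presence on the arrays gave a smaller set. Of all probes, 237 were detected on all 3 OV arrays and on no periotic tissue array, and 209 of these were called higher in OV. In the other direction, 266 probes were above background on the 3 periotic tissue arrays and on no OV array, and 221 of these were called. The lower bound reached 2-fold for 48 of the former and for 35 of the latter, so that most of these on-and-off patterns lay close to the detection limit. Among the 10175 probes above background on all 6 arrays, 883 were higher in OV and 890 were higher in periotic tissue. Together these were 17.4% of the 10175, a higher share than over all probes.

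The 57 genes over 4-fold higher in periotic tissue included 7 of the neural tube list and 5 of the hindbrain segment list, and 32 were in none of the lists. *Dbx1*, a homeobox factor of progenitors at the middle of the neural tube, read 10.04, 10.42 and 10.23 on the periotic tissue arrays and 6.16, 6.07 and 5.73 on the OV arrays. All OV values of *Dbx1* were below the detection limit, and periotic tissue was at least 16.3-fold higher (*q* = 9.71e-12, limma). *Nkx6-1*, a factor of ventral progenitors, read 9.53, 9.54 and 9.12 in periotic tissue and 6.10, 5.97 and 5.58 in OV. It too was not above background in OV, with a fold Δ of at least 9.16 (*q* = 1.59e-10, limma). *Rfx4*, a factor known for its role in dorsal brain midline and neural tube patterning, read 10.27, 10.31 and 10.32 against 6.25, 6.39 and 5.79. Here 2 of the OV arrays were above background, and periotic tissue was 17.9-fold higher (log2 difference -4.16, SE 0.13, *q* = 1.34e-11, limma). *Fez1*, which encodes an adaptor of axonal transport, read 11.19, 11.42 and 11.17 against 7.18, 7.14 and 6.68, a fold Δ of 19.1 toward periotic tissue. The creatine kinase gene *Ckb*, abundant in brain, stayed well above background in OV, where its mean was 11.09 against 14.18 in periotic tissue. In the embryo-minus-otic group, *Dbx1*, *Nkx6-1*, *Rfx4*, *Fez1* and *Ckb* had means of 8.98, 7.97, 8.66, 9.94 and 13.38, each between the OV mean and the periotic tissue mean.

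**Figure D2:**
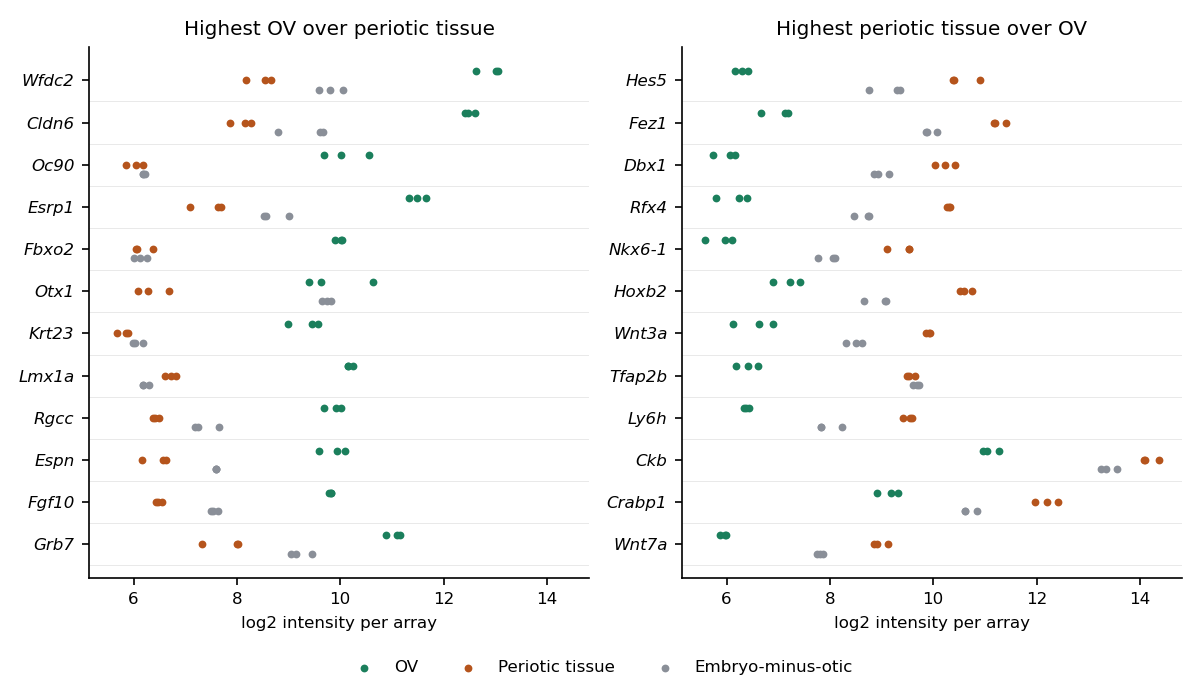
Log2 intensity on each of the 9 arrays (x axis) for the 12 genes with the largest difference in each direction. Points are single arrays, coloured by tissue. The genes were chosen among those without overlap between OV and periotic tissue arrays. In the embryo-minus-otic group *Otx1* lies at the OV level and *Tfap2b* at the periotic level.

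The 29 neural tube genes on the array, a list of progenitor factors from floor plate to roof plate, had a median difference of -0.55 log2 units against 0.00 over all genes. Of the 29, 17 were higher in periotic tissue and 1 was higher in OV. Over all genes (brightest probe of each), 6.02% were called higher in periotic tissue and 5.81% higher in OV. The counts of every list below are to be read beside these shares. The called genes span the dorsoventral axis of the tube. *Olig3*, a factor of dorsal progenitors, read 8.81, 9.0 and 8.84 in periotic tissue and 5.96, 6.18 and 6.22 in OV. It was 6.80-fold higher in periotic tissue (*q* = 3.63e-11, limma). *Nkx2-2*, a factor of the most ventral neural progenitors, read 7.91, 8.0 and 7.85 and was at least 3.30-fold higher, with no OV array above background. The proneural gene *Neurog2* was at least 3.54-fold higher in periotic tissue. *Zic1*, a dorsal zinc finger gene, differed from these in being clearly present in OV, with 8.69, 9.33 and 8.51 there and 10.94, 10.98 and 11.33 in periotic tissue (4.72-fold). The gene against the rest was *Olig1*, a basic helix-loop-helix factor known from the oligodendrocyte lineage. It read 8.14, 7.50 and 8.25 in OV and 6.69, 6.46 and 6.69 in periotic tissue, a fold Δ of 2.55 toward OV (*q* = 1.58e-05, limma). *Sox2*, shared by neural progenitors and the sensory part of the ear, had means of 8.44 in OV and 8.85 in periotic tissue on its brightest probe and was not called (*q* = 0.0731). A second *Sox2* probe, with 7.99 and 8.59, was called higher in periotic tissue (*q* = 0.0471, limma).

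Genes that mark hindbrain segments, the rhombomeres, were the list with the lowest median, -1.77 log2 units over 12 genes. Of these 12, 9 were higher in periotic tissue and none was higher in OV. *Hoxb2*, active from the third rhombomere backward, read 10.60, 10.74 and 10.52 in periotic tissue and 7.43, 6.90 and 7.24 in OV, a fold Δ of 10.8 (log2 difference -3.44, SE 0.14, *q* = 1.06e-10, limma). *Hoxb1*, known for its stripe in the fourth rhombomere, read 8.53, 9.14 and 8.48 against 5.69, 5.70 and 5.76 and was at least 5.73-fold higher. *Egr2*, the gene of the third and the fifth rhombomere, read 7.59, 7.68 and 8.04 in periotic tissue. It was not above background on any OV or embryo-minus-otic array, and periotic tissue was at least 2.97-fold above OV (*q* = 1.61e-08). The anterior genes *Hoxb1*, *Hoxb2*, *Hoxa2* and *Egr2* had embryo-minus-otic means of 7.15, 8.94, 8.55 and 6.04, below their periotic tissue means of 8.72, 10.62, 10.31 and 7.77. *Hoxb4* and *Hoxd4*, whose domains begin in the posterior hindbrain and run down the trunk, had the other order. Their embryo-minus-otic means were 9.35 and 9.90, against 8.05 and 7.86 in periotic tissue and 5.97 and 6.08 in OV. *Hoxd3* was at least 5.43-fold and *Hoxb3* at least 1.38-fold higher in periotic tissue than in OV. *Hoxa2* was 5.80-fold higher. *Hoxa3* and *Hoxa4* were not called, and *Hoxa3* was above background on none of the 9 arrays.

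Among 19 genes of otic neuroblasts and young neurons, which both the OV and the hindbrain produce, the directions divided. Higher in OV were 3 genes and higher in periotic tissue were 8, with a list median of -0.13 log2 units. *Bdnf*, the neurotrophin that sustains ganglion neurons of the inner ear, read 8.76, 9.12 and 8.85 in OV and 6.29, 6.35 and 6.58 in periotic tissue, a fold Δ of 5.67 (*q* = 3.30e-10, limma). *Neurod1*, the basic helix-loop-helix gene of delaminating neuroblasts, read 8.60, 8.73 and 8.38 against 6.65, 6.64 and 6.98 (3.51-fold). The related neurotrophin gene *Ntf3* was at least 1.33-fold higher in OV. On the periotic side stood genes of differentiating neurons and their progenitors. *Stmn2*, a microtubule regulator of growing axons, had a mean of 9.55 ± 0.39 (SD, n = 3) in periotic tissue and read 7.43, 6.59 and 6.14 in the OV replicates (7.11-fold, *q* = 6.85e-07, limma). OV replicate 1 was highest of its group here but still below every periotic tissue array. *Neurod4* was 5.64-fold, *Elavl4* 3.23-fold, *Dcx* 2.96-fold, *Elavl3* 1.99-fold and *Gap43* 1.87-fold higher in periotic tissue. *Isl1* and *Pou4f1*, factors that both otic and hindbrain neurons use, were above background on every array and were not called, with means of 9.49 in OV against 9.63 in periotic tissue and of 7.15 against 7.28.

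Neural crest and glial genes gave 6 of 13 higher in periotic tissue and none higher in OV. *Tfap2b*, listed on the array under its older symbol *Tcfap2b*, read 9.50, 9.65 and 9.53 in periotic tissue and 6.60, 6.41 and 6.19 in OV. It was 8.95-fold higher in periotic tissue (log2 difference -3.16, SE 0.10, *q* = 1.96e-11, limma), and the embryo-minus-otic mean, 9.68, was at the periotic level. *Ednrb*, the endothelin receptor of migrating crest and of neural progenitors, read 11.67, 11.74 and 11.57 against 8.74, 8.64 and 8.74, a fold Δ of 7.75. The other called members were smaller in size, with *Tfap2a* 1.78-fold and *Ngfr* 1.55-fold higher, *Cdh6* 1.35-fold and *Ets1* 1.33-fold. Leaving out periotic tissue replicate 1 ended the calls of *Cdh6* (*q* = 0.0711) and *Ets1* (*q* = 0.114). *Foxd3*, *Mitf* and *Dct* were not above background on any OV or periotic tissue array.

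Mesenchyme genes followed the same direction, with smaller differences. Of 25 mesenchymal transcription factors on the array, 8 were higher in periotic tissue, none was higher in OV, and the median difference was -0.11 log2 units. The largest differences belonged to *Zeb2* and *Zeb1*, zinc finger repressors of epithelial genes that neural tissue also expresses. *Zeb2* read 8.39, 8.29 and 8.69 in periotic tissue and 6.69, 6.66 and 6.51 in OV (3.56-fold, *q* = 1.11e-07, limma). *Zeb1* read 9.91, 9.90 and 9.96 against 8.58, 8.48 and 8.63 (2.57-fold, *q* = 3.31e-08, limma). *Pou3f4*, the POU gene of otic mesenchyme and neural tube, was 1.97-fold higher in periotic tissue. The forkhead genes *Foxc2* and *Foxd1* were each 1.79-fold higher and *Foxf2* was at least 1.39-fold higher. *Msx1* was 2.18-fold higher (*q* = 0.00158), and it was not called with median normalization (*q* = 0.0545).

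Several factors that define mesenchyme were not called. *Twist1* had means of 8.24 in OV and 8.25 in periotic tissue, *Snai1* 7.03 and 7.09, and *Prrx1* 7.05 and 7.25. Their means in the embryo-minus-otic group were 9.13, 7.91 and 8.20. The summed intensity of the 25 genes was 3045 to 3484 on the OV arrays, 5156 to 5375 on the periotic tissue arrays and 7979 to 9798 on the embryo-minus-otic arrays. The part of adhering mesenchyme in the OV values was not tested. Of the 24 mesenchymal matrix and receptor genes, 6 were higher in periotic tissue (25%, against 6.02% of all genes). In OV 2 were higher (8.33%), a share near the 5.81% of all genes. *Vim*, the intermediate filament gene of mesenchyme and neural progenitors, read 10.84, 11.12 and 10.55 in periotic tissue and 8.75, 8.97 and 8.76 in OV (4.02-fold, *q* = 5.04e-06, limma). *Sparc* was 2.05-fold, *Lum* 1.84-fold and *Col5a1* 1.82-fold higher in periotic tissue, and *Col1a1* was at least 1.18-fold and *Fbn1* 1.25-fold higher. Without OV replicate 3 neither *Col1a1* (*q* = 0.114) nor *Fbn1* (*q* = 0.116) was called. *Col6a1*, a collagen VI chain, went the other way, with 9.37, 8.97 and 9.27 in OV and 6.82, 7.23 and 7.01 in periotic tissue (4.55-fold, *q* = 2.78e-09, limma). *Vcan*, a large proteoglycan gene, was 1.52-fold higher in OV.

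**Figure D3:**
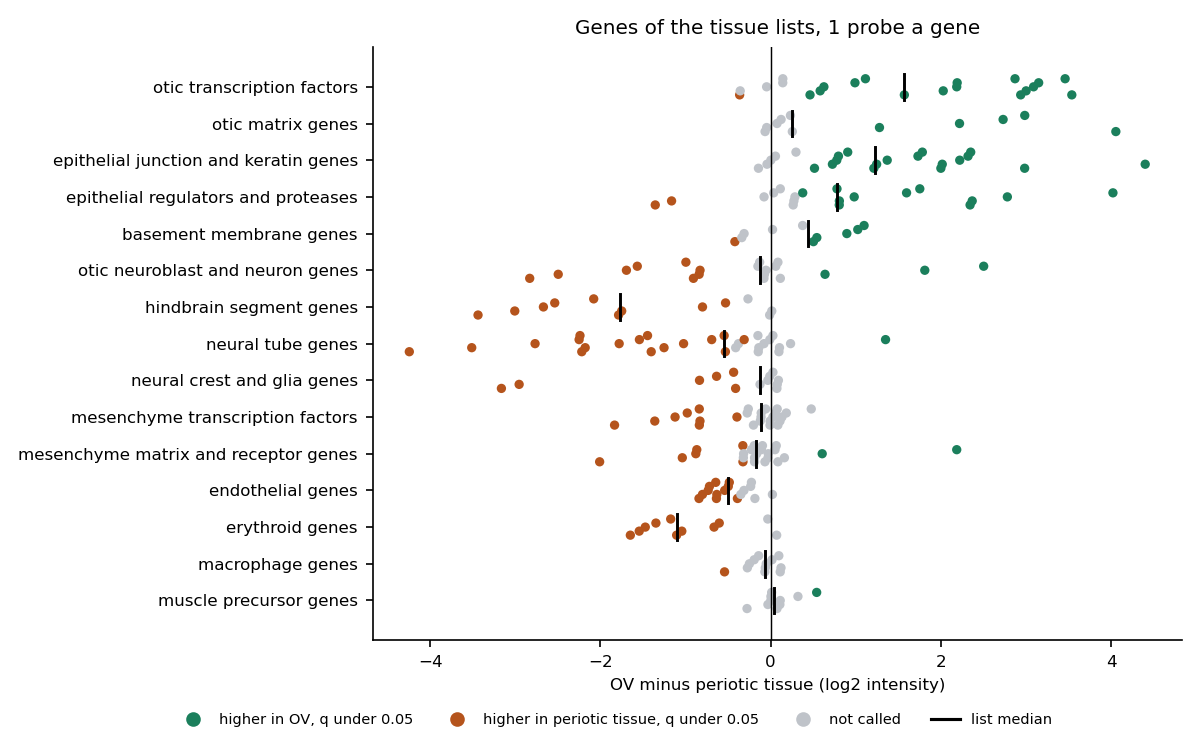
Each point is a gene of a tissue or cell type list, placed at its difference between OV and periotic tissue in log2 intensity (x axis). Green and orange points passed *q* under 0.05, grey points did not, and black bars are list medians. The otic transcription factor, otic matrix and epithelial lists lie to the right, and hindbrain, neural tube, erythroid and endothelial lists to the left. The otic neuroblast and neuron list is divided, with a median of -0.13 log2 units. Single genes such as *Olig1* and *Col6a1* lie against their list.

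The 62 genes over 4-fold higher in OV included 10 otic transcription factors and 7 genes of the junction and keratin list. Another 31 were in none of the lists. Of the 22 junction and keratin genes on the array, 17 were higher in OV and none was higher in periotic tissue, with a median of 1.23 log2 units. *Cldn6*, a claudin of embryonic epithelia, read 12.41, 12.48 and 12.61 in OV and 8.16, 7.87 and 8.27 in periotic tissue, and its relative *Cldn4* read 10.34, 10.12 and 10.20 against 7.53, 6.92 and 7.26. These were 21.1-fold and 7.91-fold higher in OV (*q* = 1.43e-10 and 2.93e-10, limma), and *Cldn3* was at least 4.17-fold higher. The keratin gene *Krt18* was 5.10-fold, the tight junction gene *Marveld3* at least 3.80-fold and the polarity gene *Llgl2* 4.05-fold higher. *Crb3*, *Jup*, *Pard6b*, *Marveld2* and *Perp* were not called. In the embryo-minus-otic group, which holds other epithelia, *Cldn6*, *Cldn4* and *Krt18* had means of 9.36, 8.10 and 8.04, each above their periotic tissue means of 8.10, 7.24 and 6.93.

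Regulators and proteases of epithelia followed, with 11 of 19 higher in OV, 2 higher in periotic tissue and a median of 0.78 log2 units. *Esrp1*, listed as *Rbm35a*, encodes an epithelial splicing regulator and read 11.49, 11.65 and 11.33 in OV against 7.69, 7.09 and 7.63 (16.2-fold). *Grhl2*, a transcription factor that maintains epithelial junctions, was 5.16-fold higher in OV, the membrane protease gene *Prss8* 6.87-fold and its relative *St14* at least 2.54-fold. *Ap1m2*, which encodes the epithelial adaptor for basolateral sorting, read 8.50, 8.37 and 8.42 in OV and 5.98, 5.98 and 6.29 in periotic tissue (5.07-fold). *Rab25*, the small GTPase of epithelial recycling endosomes, read 7.62, 7.56 and 7.85 in OV and was not above background in periotic tissue, a fold Δ of at least 2.82. The 2 exceptions are factors of surface ectoderm. *Trp63*, a factor of stratifying epidermis, read 7.43, 6.97 and 7.37 in periotic tissue, and no OV array was above background (at least 2.08-fold, *q* = 7.69e-07, limma). *Tfap2c* was 2.24-fold higher in periotic tissue (*q* = 0.000104), and both genes were highest in the embryo-minus-otic group, with means of 7.95 and 8.76.

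Because the Zeb and Snail families are known to bind E-boxes of the form CACCTG, that sequence was looked for in the 250 bases before the start of each gene in the RefSeq promoter set for GRCm38.p6, on both strands, so that CAGGTG counted too. Of 27025 genes with a promoter, 19.4% held it, and of 32851 promoters 17.2% did. The match was present in 10 of the 15 junction and keratin genes with a promoter (66.7%) and in 5 of the 9 epithelial regulators with one (55.6%). It was present in 1 of 13 otic transcription factors, in 0 of 22 neural tube genes and in 0 of 7 hindbrain segment genes. Nearer to the share of all genes were the mesenchymal transcription factors, with 2 of 14 (14.3%), and the endothelial genes, with 2 of 10 (20%). Among genes called more than 2-fold higher in OV it was in 54 of 163 (33.1%), and among those more than 2-fold higher in periotic tissue in 24 of 158 (15.2%), a split chosen after the values were seen. A match in these letters is a description of the promoter and not a bound site. The 4 promoters below were picked from genes described above that hold the sequence, and they show 1, 1, 2 and 4 copies. They are written 5′ to 3′ on the strand of the gene, ending at the base before its start, with E-boxes in capitals.
Cldn6 (chr17:23679115-23679364, plus strand): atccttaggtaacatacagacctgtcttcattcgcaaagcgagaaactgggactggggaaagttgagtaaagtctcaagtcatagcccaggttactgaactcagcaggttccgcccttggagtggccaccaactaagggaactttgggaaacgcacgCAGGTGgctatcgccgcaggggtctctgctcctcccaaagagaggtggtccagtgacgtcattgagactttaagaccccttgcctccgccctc
Cldn4 (chr5:134946935-134947184, minus strand): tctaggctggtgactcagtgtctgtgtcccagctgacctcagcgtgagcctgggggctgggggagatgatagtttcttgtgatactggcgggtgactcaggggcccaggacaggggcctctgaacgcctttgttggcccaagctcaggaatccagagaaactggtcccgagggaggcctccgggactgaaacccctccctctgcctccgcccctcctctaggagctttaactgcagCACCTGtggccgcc
Rab25 (chr3:88548280-88548529, minus strand): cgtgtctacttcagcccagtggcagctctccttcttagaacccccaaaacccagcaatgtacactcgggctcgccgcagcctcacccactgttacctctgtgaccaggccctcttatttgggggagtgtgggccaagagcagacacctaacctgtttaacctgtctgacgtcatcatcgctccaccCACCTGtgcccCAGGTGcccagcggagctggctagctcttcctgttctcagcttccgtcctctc
Ap1m2 (chr9:21312334-21312583, minus strand): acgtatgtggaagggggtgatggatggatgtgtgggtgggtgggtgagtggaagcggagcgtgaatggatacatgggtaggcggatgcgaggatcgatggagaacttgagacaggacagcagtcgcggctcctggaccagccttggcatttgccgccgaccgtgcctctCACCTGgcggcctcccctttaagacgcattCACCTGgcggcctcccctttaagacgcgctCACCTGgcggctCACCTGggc

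Counted from the start of the gene, the first base of the E-box lay at -93 in *Cldn6* and at -14 in *Cldn4*. In *Rab25* the copies began at -64 and -53, and in *Ap1m2* they began at -81, -51, -21 and -9.

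Of 21 otic transcription factors on the array, 16 were higher in OV, with the highest list median, 1.57 log2 units. *Otx1*, the homeobox gene of the ventral and lateral vesicle, varied most between OV arrays, with 9.39, 10.64 and 9.63 against 6.08, 6.27 and 6.69 in periotic tissue. OV was 11.6-fold above periotic tissue (log2 difference 3.54, SE 0.23, *q* = 2.97e-08, limma), and the embryo-minus-otic mean, 9.74, was close to the OV mean of 9.89. *Tbx2* was at least 7.35-fold, *Gata3* 8.51-fold and *Tbx3* 7.66-fold higher in OV. *Pax2* and *Pax8*, classical placode genes, gave weak signals on these probes and were at least 1.07-fold and at least 1.84-fold higher in OV. *Hmx2*, *Hmx3* and *Emx2* were not above background on any OV array. The first pair are known genes of the dorsal vesicle. *Sox21* was called 1.29-fold higher in periotic tissue (*q* = 0.0427), a call lost without OV replicate 1 or 2, without periotic tissue replicate 1 or 2 and without embryo-minus-otic replicate 3, with *q* between 0.05 and 0.215.

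Genes of the otic matrix, whose products fill or line the later sensory organs, gave 5 of 11 higher in OV. *Oc90*, the main protein of otoconia, read 10.01, 10.56 and 9.69 in OV against 5.86, 6.18 and 6.06 in periotic tissue. *Otol1*, another otoconial gene, read 6.47, 7.28 and 7.08 and was at least 1.70-fold higher, with no periotic tissue array above background. The cartilage collagen genes *Col2a1* and *Col9a2* were 4.66-fold and 6.64-fold higher in OV, while *Col9a1* and *Col9a3* were not called. Basement membrane genes gave 5 of 10 higher in OV. Both type IV collagen genes were among them, *Col4a2* 2.14-fold and *Col4a1* 1.86-fold, with the perlecan gene *Hspg2* 2.03-fold higher. *Nid2* was higher in periotic tissue (1.34-fold, *q* = 0.00611), though not with median normalization (*q* = 0.0858), and *Lama1* was not called.

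Signalling genes were divided between the tissues in the FGF, Wnt, Notch, BMP and retinoic acid pathways. In the FGF pathway, 9 of 22 genes were higher in OV and 2 were higher in periotic tissue. With median normalization the count higher in OV was 6, since *Fgf8* (*q* = 0.0740, limma), *Fgf16* (*q* = 0.0657, limma) and *Spred1* were not called. *Fgf8* and *Fgf16* were also not called without OV replicate 1 or without periotic tissue replicate 2. Among ligands, *Fgf10* read 9.82, 9.79 and 9.83 in OV and 6.43, 6.47 and 6.56 in periotic tissue (log2 difference 3.33, SE 0.08, *q* = 2.61e-12, limma), and *Fgf9* was 1.98-fold higher in OV. *Fgf15*, a ligand of the neural tube, was 1.92-fold higher in periotic tissue. The receptor *Fgfr3* read 8.12, 8.32 and 7.77 in periotic tissue and was not above background in OV, a fold Δ of at least 3.65 toward periotic tissue (*q* = 1.26e-08, limma). *Fgfr1*, *Fgfr2* and *Fgfr4* were not called. Among genes known as transcriptional targets or feedback inhibitors of FGF signalling, *Il17rd* (4.17-fold), *Etv5* (3.31-fold), *Etv4* (at least 2.72-fold) and *Dusp6* (1.76-fold) were higher in OV. *Spred1* was 1.56-fold higher in OV (*q* = 0.000785), a call lost with median normalization (*q* = 0.110). *Etv1*, *Spred2*, *Spry1*, *Spry2* and *Spry4* were not called, and none of them was above background on all arrays of either tissue. *Etv5* had an embryo-minus-otic mean of 6.60, against 8.06 in OV and 6.33 in periotic tissue.

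The Wnt pathway leaned toward periotic tissue, with 11 of 27 genes higher there and 5 higher in OV. *Wnt3a*, a ligand of the dorsal neural tube, read 9.93, 9.85 and 9.91 in periotic tissue and 6.62, 6.89 and 6.13 in OV (10.2-fold, *q* = 3.05e-10, limma). *Wnt7a* read 8.86, 9.13 and 8.92 and was at least 6.81-fold higher, with no OV array above background, and *Wnt1* was at least 1.76-fold higher. The receptor gene *Fzd10* was 4.75-fold higher in periotic tissue, and the secreted antagonist genes *Sfrp2* and *Sfrp1* were 4.77-fold and 2.47-fold higher. On the OV side the ligand *Wnt6* read 7.83, 8.35 and 8.41 against 7.07, 6.80 and 6.81 (2.47-fold). *Sp5*, a transcription factor known as a direct Wnt target, read 10.25, 10.04 and 10.47 in OV and 8.02, 7.23 and 7.89 in periotic tissue (5.82-fold, *q* = 2.08e-08, limma). *Axin2*, a general feedback target of the pathway, did not follow it, with means of 9.18 in OV and 9.52 in periotic tissue (*q* = 0.119). *Wnt7b* varied between arrays of a tissue, with 8.15, 8.90 and 8.41 in OV and 6.83, 8.12 and 7.08 in periotic tissue (2.21-fold, *q* = 0.00643), and was not called after median normalization (*q* = 0.0633). The number of Wnt genes called higher in OV fell to 3 without OV replicate 1 or 2 or periotic tissue replicate 1, since the calls of *Fzd1* and *Fzd2* were lost.

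Of 17 Notch pathway genes, 4 were higher in each tissue. Without normalization between arrays the count higher in OV was 2, since *Lfng* (*q* = 0.0798) and *Hey2* (*q* = 0.289) were not called, and the periotic count was 4. *Hes5*, a target gene of Notch in neural progenitors, read 10.41, 10.90 and 10.39 in periotic tissue and 6.41, 6.17 and 6.30 in OV (19.3-fold, log2 difference -4.27, SE 0.16, *q* = 5.70e-11, limma). The ligand genes *Dll3* and *Dll1*, which newborn neurons express, were 2.93-fold and 1.78-fold higher in periotic tissue, and the feedback gene *Nrarp* was 1.77-fold higher. The ligand *Jag1*, a gene of the prosensory epithelium, was higher in OV, with 9.48, 9.38 and 8.62 against 8.07, 7.72 and 8.15 (2.27-fold, *q* = 0.000539, limma). *Hey1*, another Notch target, was 1.75-fold higher in OV, while the receptors *Notch1*, *Notch2* and *Notch3* were not called.

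In the BMP pathway 4 of 20 genes were higher in OV and 6 in periotic tissue. The ligand *Bmp7* read 8.22, 8.29 and 8.45 in OV and 6.55, 6.51 and 6.37 in periotic tissue (3.59-fold, *q* = 1.61e-08, limma), and *Bmp4* read 9.47, 9.65 and 9.48 against 8.14, 8.09 and 8.17 (2.64-fold). The receptor gene *Bmpr1b* was 1.74-fold higher in OV, and *Bmpr1a* was not called. On the periotic side were 3 secreted antagonists, *Fst* (2.05-fold), *Chrd* (1.45-fold) and *Nog* (at least 1.21-fold), together with the ligand *Bmp6* and the target gene *Id4*. The target genes *Id1*, *Id2* and *Id3* were not called.

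The genes of retinoic acid handling gave 3 of 15 higher in OV and 4 higher in periotic tissue. *Aldh1a1*, whose enzyme makes retinoic acid, was at least 2.13-fold higher in OV and *Stra6*, the retinol uptake receptor, was 1.98-fold higher. *Crabp1*, a retinoic acid binding protein of hindbrain and crest, read 12.21, 11.96 and 12.41 in periotic tissue and 9.17, 9.32 and 8.91 in OV (8.33-fold, *q* = 1.64e-10, limma). *Cyp26b1*, whose enzyme degrades retinoic acid, was at least 1.66-fold higher in periotic tissue, and the receptor gene *Rarb* was 1.84-fold higher. Of the 10 Hedgehog genes, *Shh* was called, with 8.50, 8.21 and 7.80 in periotic tissue and no OV array above background (at least 3.92-fold, *q* = 1.14e-08, limma). The pathway's target *Ptch1* was above background on none of the 6 arrays and its inhibitor *Hhip* on 2 periotic tissue arrays and no OV array, so these probes do not tell whether the genes differed.

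**Figure D4:**
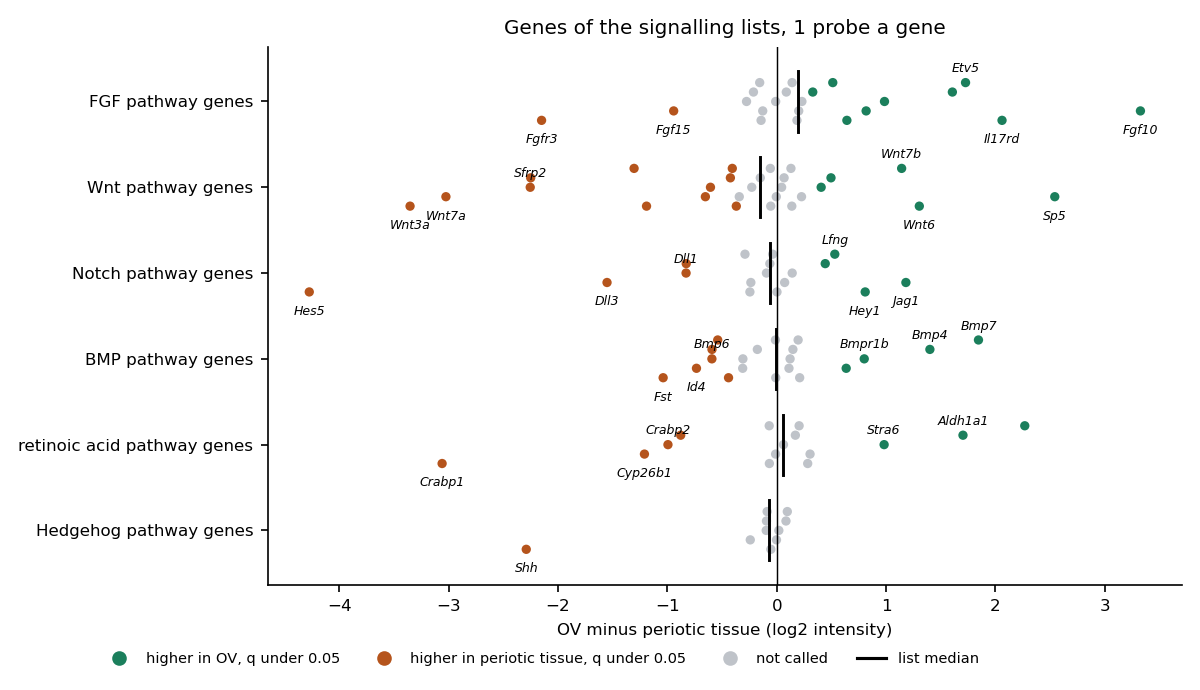
Each point is a gene of a signalling list, placed at its difference between OV and periotic tissue in log2 intensity (x axis). Green and orange points passed *q* under 0.05, grey points did not, black bars are list medians, and up to 3 called genes on each side are named. *Fgf10* and *Sp5* lie farthest toward OV, and *Hes5*, *Wnt3a*, *Crabp1* and *Wnt7a* farthest toward periotic tissue.

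Blood and vessel genes were higher in periotic tissue than in OV. Of 11 erythroid genes, 9 were higher in periotic tissue and none in OV, with a median of -1.10 log2 units. The embryonic globin gene *Hbb-bh1* read 13.70, 13.70 and 13.81 in periotic tissue and 12.75, 12.55 and 10.97 in OV (3.13-fold, *q* = 0.00177, limma). The summed erythroid intensity on the OV arrays was 30939, 23217 and 12683 for replicates 1, 2 and 3, a wider spread than the 48813 to 57658 on the periotic tissue arrays. The globins were nevertheless bright on every OV array, with *Hbb-y* at 13.72, 13.13 and 12.53. The count of 9 stayed between 8 and 9 over the 17 alternatives, which include leaving out each array. Globin genes are near-identical copies in part, and the probes may not separate them.

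Of 17 endothelial genes, 11 were higher in periotic tissue and none in OV, by 1.31-fold to 1.79-fold, with *Esam* and *Robo4* the largest. Their summed intensity was 3331 to 4120 on the OV arrays and 5439 to 5816 on the periotic tissue arrays. With median normalization 7 were called. The macrophage list was near the detection limit, with *Mrc1* as the called gene of 12 (at least 1.26-fold higher in periotic tissue) and 10 not above background on any OV array. Its share of 8.33% was near the 6.02% of all genes called higher in periotic tissue. Without OV replicate 3, *Cx3cr1* was called as well (*q* = 0.0402). Of 10 muscle precursor genes, *Msc* was 1.46-fold higher in OV, a called share of 10% against 5.81% of all genes. *Actc1*, the embryonic striated muscle actin gene, had an embryo-minus-otic mean of 11.13 and was detected in OV replicate 1, at 7.37, and on no other array of the tissues compared. Of 11 immediate early and heat shock genes, which can respond to handling, 3 were higher in periotic tissue, with *Egr1* 2.43-fold, *Dusp1* 1.47-fold and *Jun* 1.45-fold. Their part in the other differences was not tested. Of 5 sex-linked genes, *Xist* was called higher in OV (1.66-fold, *q* = 0.0496), and this call was lost in 8 of the 17 alternatives, for example without OV replicate 3 (*q* = 0.208). The Y-linked genes were not called.

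**Figure D5:**
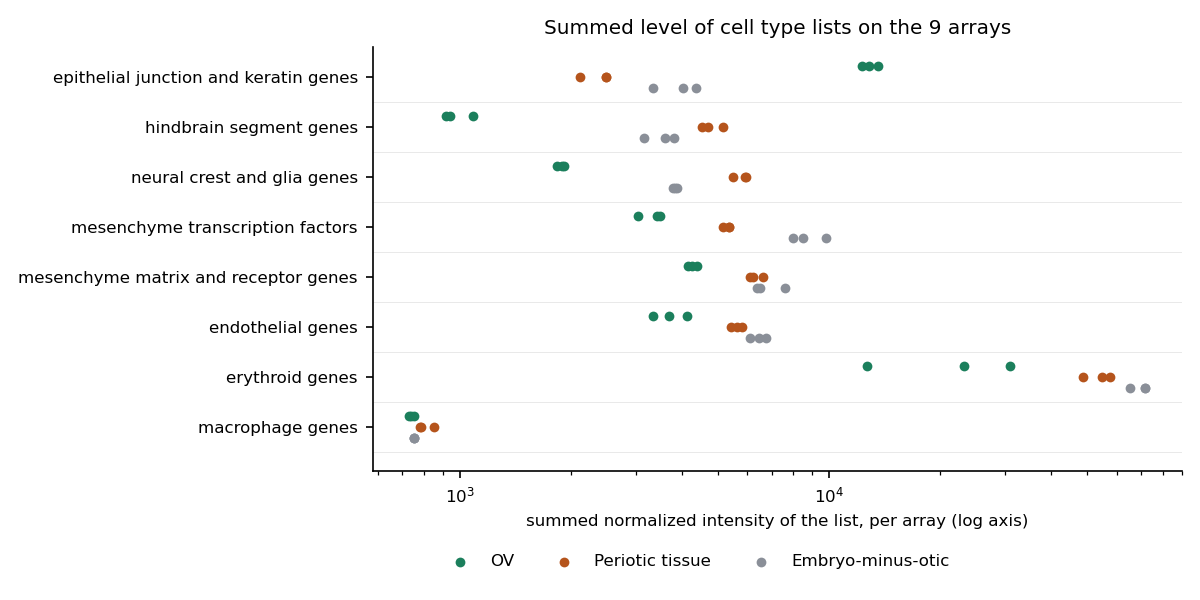
Summed normalized intensity of the genes of 8 cell type lists on each array, on a log x axis, with points coloured by tissue. OV arrays lie highest for epithelial genes and lowest for hindbrain, crest, mesenchyme, endothelial and erythroid genes. The 3 OV arrays differ most from each other in the erythroid sum. Intensities were summed without log2, so the brightest genes weigh most, such as *Ednrb* in the crest list. The sums therefore do not measure the amount of a cell type.

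Where a gene had more than 1 probe, the probes seldom pointed apart. Of 322 symbols with 2 or more called probes, 319 had all of them in the same direction. The exceptions were *Mbp*, *Ptpre* and *Surf5* (now *Med22*). For *Ptpre*, a receptor-type phosphatase gene, 1 probe had a mean of 9.93 ± 0.27 (SD, n = 3) in OV and read 10.45, 10.71 and 10.41 in periotic tissue (1.51-fold higher in periotic tissue, *q* = 0.0196, limma). Another read 6.83, 6.86 and 6.89 in OV with no periotic tissue array above background (at least 1.60-fold higher in OV, *q* = 1.63e-06, limma). For *Mbp*, the myelin basic protein gene, 1 probe was 1.86-fold higher in OV and another was at least 1.33-fold higher in periotic tissue. The probes of *Surf5* differed by 1.35-fold toward OV and 1.34-fold toward periotic tissue. Which transcript each probe measures was not analysed here. Among the 196 called genes of the lists, 56 had further probes on the array, 83 in all. Of these 83, 42 were called the same way, none was called the opposite way, and 26 of the 41 that were not called were above background on none of the 6 arrays.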

How the data were processed

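RNA from 9 tissue pools was amplified, labelled with biotin and hybridized to Illumina MouseRef-8 v2.0 arrays of 1 colour. The authors deposited an average signal per probe and array, an intensity without normalization between arrays, and a detection p-value that ranks the signal against negative controls. Whether a background was subtracted and which slide held each array are not given in the sources used here. Arrays were grouped by the tissue in their labels. Signals were taken to log2, quantile normalization was run over the 9 arrays, and 25697 probes were fitted in 3 groups with limma 3.58.1 (R 4.3.3), with Benjamini-Hochberg adjustment over all probes.

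The fit was tested on simulated data made from these arrays with changed probes. The comparison was OV against periotic tissue over 25697 probes, with 8 false calls. Recovered were 93.6% of 110 probes changed by 1 log2 unit and all of 90 changed by 2 log2 units. Smaller changes were not simulated. The median fold Δ of the called probes, 1.49 toward OV and 1.48 toward periotic tissue, was smaller than these changes. The recovery therefore does not describe most of the calls. No recovery was obtained for probes below background in a tissue, so the test does not tell how such dim probes fared. They include the probes whose fold Δ is given as a lower bound. Precision is limited by having 3 arrays per group. For lists, each gene was represented by its probe of highest mean intensity. The members and lists were chosen with earlier results of these data known. Named were the 12 genes with the largest difference in each direction without overlap of arrays, in each list up to 6 called genes per direction and any against the rest, genes with probes of opposite calls, and genes whose call changed with an alternative. Members that were not called were named after their values were seen. Genes of the lists without a probe on the array were not analysed here. Some list members are counted but not reported here by name. Array symbols were updated through RefSeq names for GRCm38.p6, which also gave the promoters.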

Additional observations from a re-analysis of the deposited data

How the results depend on the processing

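Over 17 alternatives no probe called in the main setting was called in the opposite direction. Higher in OV at *q* under 0.05 were 814 probes with median normalization and 620 without normalization between arrays, in place of 1302, and higher in periotic tissue were 870 and 761, in place of 1323. With background correction by neqc, 155 probes were over 4-fold higher in OV and 133 in periotic tissue, in place of 71 and 66. Leaving out 1 array gave 1020 to 1387 probes higher in OV and 1041 to 1407 higher in periotic tissue, and 66 to 72 and 61 to 69 at the 4-fold rule. For presence on all arrays of a tissue and none of the other it gave 262 to 345 for OV and 291 to 359 for periotic tissue, in place of 237 and 266, and a detection p-value under 0.05 gave 190 and 246. Same-numbered OV and periotic tissue arrays deviated together with r of 0.13, 0.14 and 0.06 over all probes. Over probes above background on all arrays of a group, r was 0.20, 0.21 and 0.08. The numbers were not taken to pair the arrays, because the sources used here do not tie them to litters. Each OV array correlated best with its own number, a hint from the data and not the design. With the replicate number as a block, 1384 probes were higher in OV and 1406 in periotic tissue. Of the 196 called list genes, 156 kept their call under every alternative and 40 lost it under at least 1, the largest of the latter with a fold Δ of 2.21. Among neural crest genes higher in periotic tissue, 4 in place of 6 were called without normalization between arrays, and among Wnt genes higher in OV 2 in place of 5 with median normalization. Probes not above background in a tissue limit what can be said of the dimmer side.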
